A study of Homo sapiens with 24 samples.

Results

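The genes described here are the aminoacyl-tRNA synthetases, 35 of the 25343 genes listed for each library. All listed genes whose numeric identifier matched 1 of 35 synthetase symbols in a gene table were kept, 19 that encode cytosolic enzymes and 16 that encode mitochondrial enzymes (symbols ending in 2, such as CARS2). All 35 passed the filter on low counts in every comparison below.

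An aminoacyl-tRNA synthetase joins an amino acid to its own tRNA, which the ribosome then uses to add that amino acid to a growing protein. Cytosol and mitochondria each have their own set, all encoded in the nucleus, although the glycine enzyme GARS1 and the lysine enzyme KARS1 serve both places and the glutamine enzyme QARS1 has no mitochondrial counterpart among these genes. Several cytosolic synthetase genes are textbook targets of the integrated stress response, in which the transcription factor ATF4 raises genes of amino acid supply and tRNA charging when translation initiation is held back.

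RNA was sequenced from a pair of established human lines, HCT116 from a colon cancer and A375 from a melanoma. Each line was studied as the parent and as a clone lacking PTDSS2 (clone PTDSS2-KO#3 of HCT116, clone PTDSS2-KO#54 of A375, each the only clone of its line and called the knockout below). PTDSS1 and PTDSS2 are the phosphatidylserine synthases, and DS07551382 is an inhibitor of PTDSS1. The cells received the solvent DMSO (vehicle) or 0.1 µM DS07551382 (inhibitor) for 24 h. There were thus 8 groups of 3 libraries, 24 libraries in all: HCT116 parent with vehicle, HCT116 parent with inhibitor, HCT116 knockout with vehicle, HCT116 knockout with inhibitor, and the same 4 in A375. Nothing in the labels tells if the 3 replicates of a group came from separate wells or cultures. The p-values therefore reflect library-to-library spread alone, which may be technical.

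Library totals ran from 6211629 to 11688267 expected counts, with a median of 9200459, and the 3 libraries of HCT116 knockout with inhibitor were among the shallowest, at 6211629 to 7910753. PTDSS2 checked the labels: it was at 27.7 to 33.0 TPM (the deposited abundance scaled for transcript length and library size) in the 6 HCT116 parent libraries, 4.05 to 6.64 in the 6 knockout libraries, 17.9 to 20.6 in the A375 parent libraries and 0.590 to 1.63 in the A375 knockout libraries. Of the colon epithelial markers EPCAM, KRT19 and CDX2 were present in every HCT116 library, while VIL1 and CEACAM5 stayed at or below 0.110 TPM. Of the melanocyte markers SOX10, MITF and S100B were present in every A375 library, while MLANA was at most 1.93 TPM and TYR was listed at 0. The defining leukocyte genes PTPRC and CD3E stayed at or below 0.3 TPM in all libraries. Of the other leukocyte and fibroblast markers CD68 (3.11 to 3.85 TPM with vehicle, 4.89 to 7.69 with inhibitor) and COL1A1 (5.42 to 6.93 and 7.81 to 8.05) rose in the HCT116 knockout, and their part in the results below was not tested.

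The cytosolic synthetase genes were the more abundant set in every group. On the deposited TPM scale, which is per transcript length, the median cytosolic member stood between 141 TPM (HCT116 parent with vehicle) and 248 TPM (A375 knockout with inhibitor), and the median mitochondrial member between 27.0 TPM (HCT116 knockout with inhibitor) and 32.7 TPM (HCT116 parent with vehicle). FARSA, the alpha subunit of the cytosolic phenylalanine enzyme, had the highest mean over the 8 groups, 313.7 TPM. PARS2, the mitochondrial proline enzyme, had the lowest, 8.13 TPM. IARS2, the mitochondrial isoleucine enzyme, stood at 147 TPM and ranked 14 among the 35. By this mean over the 8 groups it was the only mitochondrial member above any cytosolic one. Its libraries (121 to 173 TPM) overlapped those of its neighbours WARS1 and VARS1. Within A375 the order differed, with CARS2 above FARSB, the beta subunit of the cytosolic phenylalanine enzyme, in every group. In the A375 parent with vehicle, for example, their means were 99.6 and 63.8 TPM. The lowest cytosolic member by the mean over the 8 groups was CARS1, the cysteine enzyme, at 96.2 TPM, next above CARS2 at 77.4 TPM. The library ranges of that pair overlapped too (59.8 to 140.7 and 45.8 to 107 TPM). FARS2, PARS2 and WARS2 rested on the fewest counts, with library minima of 53, 51 and 57 expected counts.

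**Figure D1:**
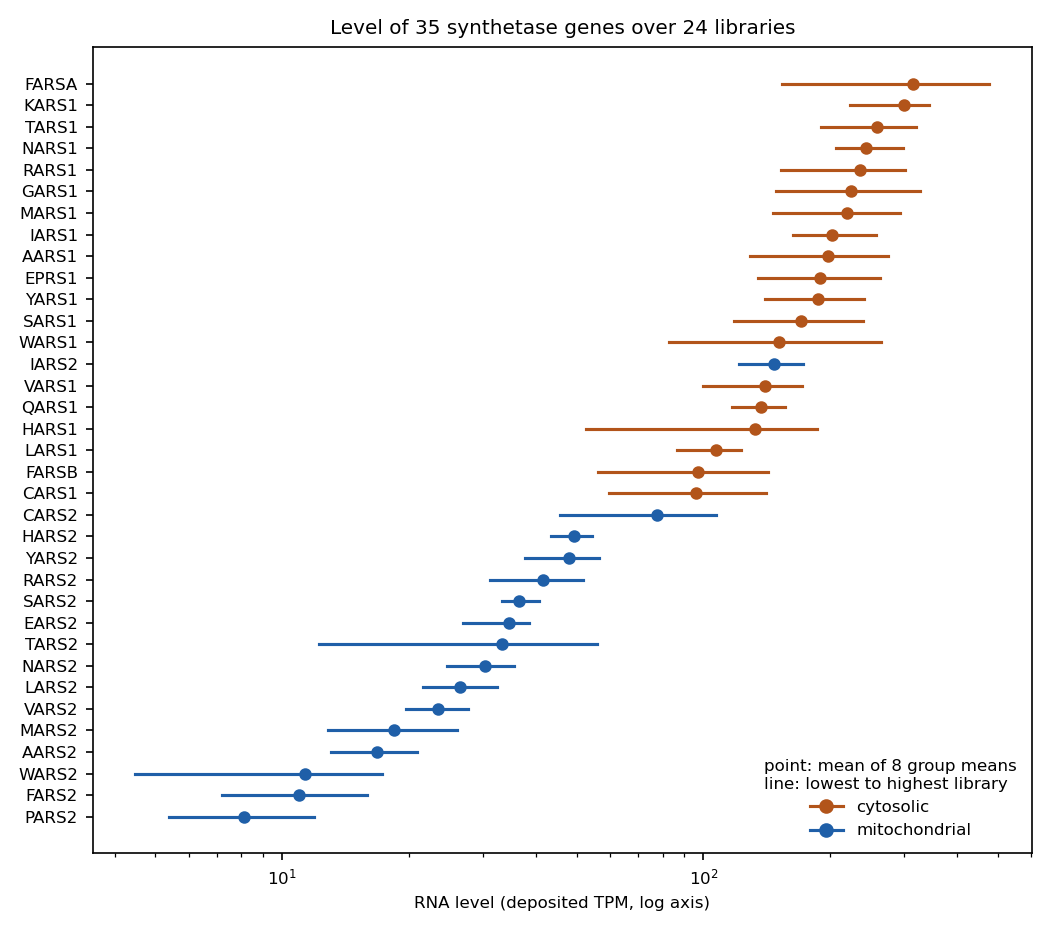
RNA level of each of the 35 genes in deposited TPM on a log axis, ordered by the mean of the 8 group means (points), with lines from the lowest to the highest of the 24 libraries. The cytosolic genes fill the upper ranks and IARS2, at 147 TPM, is the only mitochondrial gene among them.

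Because several cytosolic members are textbook targets of the integrated stress response, the promoters were read for 3 short motifs. The stretches that hold the stress-response motif are shown here before the values. The part of ATF4 in the values below was not tested. Promoter sequences, 250 bases before to 50 after the start of the gene, came from RefSeq (GRCh38.p14) and covered 30 of the 35 members. LARS1, VARS1, YARS1, AARS2 and VARS2 were not among them. The motif TGATGNAA, the core of the element bound by C/EBP-ATF dimers, was searched on both strands and lay in 8 members: 7 cytosolic (AARS1, CARS1, GARS1, IARS1, MARS1, NARS1 and TARS1) and 1 mitochondrial (YARS2). Of all 27305 genes with a promoter, 4.46% held it. Its stricter form TGATGCAAT, which contains the shorter motif, was found in TARS1 alone, against 0.29% of all genes. In the lines below capitals mark the match, read 5′ to 3′ on the strand of the gene, so a match on the opposite strand reads as its reverse complement.
AARS1 (chr16:70289641-70289738, minus strand): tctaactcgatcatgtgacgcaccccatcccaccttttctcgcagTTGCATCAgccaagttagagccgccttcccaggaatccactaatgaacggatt
CARS1 (chr11:3057408-3057435, minus strand): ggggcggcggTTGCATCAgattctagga
GARS1 (chr7:30594800-30594877, plus strand): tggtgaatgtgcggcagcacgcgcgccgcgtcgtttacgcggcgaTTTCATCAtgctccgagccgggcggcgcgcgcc
IARS1 (chr9:92293698-92293755, minus strand): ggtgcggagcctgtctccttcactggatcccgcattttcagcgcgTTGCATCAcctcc
MARS1 (chr12:57488054-57488081, plus strand): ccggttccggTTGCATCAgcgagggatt
NARS1 (chr18:57621805-57621832, minus strand): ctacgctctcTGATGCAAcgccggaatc
TARS1 (chr5:33440956-33440984, plus strand): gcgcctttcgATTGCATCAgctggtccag
YARS2 (chr12:32756042-32756139, minus strand): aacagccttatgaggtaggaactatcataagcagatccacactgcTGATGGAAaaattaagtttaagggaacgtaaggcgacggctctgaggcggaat

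The matches of CARS1, MARS1, NARS1 and TARS1 lay at or just past the annotated start, so with the 250 bases before the start alone only AARS1, GARS1, IARS1 and YARS2 kept a match (3.89% of all genes did). A match is a description of the letters in this window and not of a bound site.

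The inhibitor raised most cytosolic synthetase genes in the HCT116 knockout and lowered part of the mitochondrial set. Of the 19 cytosolic genes 12 rose, 5 fell and 2 did not pass the test. Of the 16 mitochondrial genes 2 rose, 6 fell and 8 did not pass. A gene is said to have risen or fallen where the adjusted p of edgeR's quasi-likelihood test over all genes was under 0.05, and in this comparison 37.1% of the 13164 genes tested did so, 17.1% up and 20.1% down. The median log2 fold change was 0.26 for the cytosolic set, -0.145 for the mitochondrial set and 0.002 for all genes.

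CARS1 had the largest rise. It was at 70.1, 68.2 and 69.7 TPM in the vehicle libraries and at 136, 140.2 and 141 TPM with the inhibitor, a log2 fold change of 1.01 ± 0.05 (SE, n = 3 per group here and below; edgeR adjusted p = 1.318e-28). AARS1, the alanine enzyme, went from 149, 151 and 149 TPM to 267, 272 and 268 TPM, a log2 fold change of 0.84 ± 0.03 (edgeR adjusted p = 6.933e-32). In both genes every inhibitor library lay far above every vehicle library.

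SARS1, the serine enzyme, went from 124, 121 and 118 TPM to 193, 202 and 193 TPM (0.72 ± 0.04, edgeR adjusted p = 2.543e-23). GARS1 went from 151, 155 and 158 TPM to 249, 258 and 251 TPM (0.71 ± 0.04, edgeR adjusted p = 1.584e-26). These ranges did not overlap either. MARS1, the methionine enzyme, went from 158, 149.7 and 148 TPM to 212, 228 and 219 TPM (0.53 ± 0.04, edgeR adjusted p = 2.325e-20), and YARS1, the tyrosine enzyme, from 144, 141 and 141 TPM to 197, 199 and 194 TPM (0.47 ± 0.04, edgeR adjusted p = 5.135e-18). The remaining 6 risers, WARS1, TARS1, EPRS1, NARS1, LARS1 and IARS1, had log2 fold changes between 0.18 and 0.38, again with no overlap between the groups. The share of all genes whose groups do not overlap was not computed. Statements on overlap here and below rest on the same libraries as the tests and add no separate evidence.

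MARS1 overlaps the neighbouring gene DDIT3 by 65 bases in the RefSeq annotation of GRCh38.p14. DDIT3, a stress-induced transcription factor, went from 13.7, 14.2 and 18.9 TPM to 72.7, 62.4 and 63.1 TPM in the same libraries (log2 fold change 2.06 ± 0.13, edgeR adjusted p = 5.645e-22). The strand setting of the counting is not given in the sources used here, so reads from that stretch cannot be told apart, and their part in the MARS1 value was not tested. The same holds for YARS1 with S100PBP (797 bases), CARS2 with ING1 (900 bases), EARS2 with GGA2 (3606 bases) and FARS2 with LYRM4 (11017 bases).

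The cytosolic genes that rose were the 12 on a list of textbook stress-response targets (AARS1, CARS1, EPRS1, GARS1, IARS1, LARS1, MARS1, NARS1, SARS1, TARS1, WARS1 and YARS1), with a median log2 fold change of 0.43. The list was drawn up with earlier results of these data known and is not independent evidence of their direction. The other 7 cytosolic genes divided differently. Of them 5 fell and 2, QARS1 and VARS1, did not pass the test. FARSB, the beta subunit of the phenylalanine enzyme, went from 130.3, 133 and 138 TPM to 109, 109.7 and 108 TPM (-0.30 ± 0.05, edgeR adjusted p = 3.666e-07). Its partner subunit FARSA fell alongside it, from 184, 192 and 181 TPM to 157, 154 and 156 TPM (-0.25 ± 0.04, edgeR adjusted p = 1.343e-06). RARS1 (arginine, -0.26 ± 0.04), KARS1 (-0.21 ± 0.04) and HARS1 (histidine, -0.19 ± 0.06) were the other 3. All 5 had lower TPM in each inhibitor library than in any vehicle library, with no share over all genes computed for this. The 95% intervals of the log2 change were -0.07 to 0.08 for QARS1 and -0.07 to 0.06 for VARS1.

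Several synthetases are held together in a large cytosolic complex. Of its 7 member enzymes among these genes (EPRS1, IARS1, LARS1, MARS1, QARS1, RARS1 and KARS1) 4 rose and 2 fell, and of the 12 cytosolic members outside it 8 rose and 3 fell, where 17.1% of all genes rose and 20.1% fell. By the structural class of the catalytic domain, 6 of 9 cytosolic class I genes rose and 1 fell, and 5 of 9 class II genes rose and 4 fell (EPRS1 joins both classes in 1 protein). Of the mitochondrial genes 1 of 9 in class I rose and 6 fell, and 1 of 7 in class II rose and none fell. In the A375 knockout 18.7% of all genes rose and 18.8% fell. The cytosolic counts there were 6 up and 0 down in class I, and 3 up and 4 down in class II. The mitochondrial counts were 1 up and 4 down in class I, and 0 up and 2 down in class II. The differences between classes were not tested. Of the 3 non-enzymatic scaffold genes of the complex, AIMP1, AIMP2 and EEF1E1, none rose in the HCT116 knockout and EEF1E1 fell (-0.15 ± 0.06, edgeR adjusted p = 0.03391). In the A375 knockout 0 of these 3 rose and 1 fell, and their lowest log2 fold change was -0.33. All 7 cytosolic genes with the TGATGNAA match rose in the HCT116 knockout, as did EPRS1, SARS1 and WARS1, whose promoters held no match. YARS2, the mitochondrial gene with the match, fell in the knockouts of both lines, and NARS1 and TARS1 were not called in A375.

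Among the mitochondrial genes the largest fall was that of MARS2, the methionine enzyme, from 22.1, 22.1 and 19.4 TPM to 16.1, 15.1 and 14.5 TPM (-0.47 ± 0.09, edgeR adjusted p = 8.928e-06). LARS2, the leucine enzyme, went from 28.9, 28.8 and 29.6 TPM to 22.1, 23.9 and 23.3 TPM (-0.34 ± 0.06, edgeR adjusted p = 8.691e-06). EARS2, the glutamate enzyme, went from 33.0, 37.1 and 32.7 TPM to 28.6, 30.6 and 26.8 TPM (-0.25 ± 0.06, edgeR adjusted p = 0.001016). The inhibitor libraries of all 3 lay below the vehicle libraries. CARS2 went from 57.0, 49.9 and 54.8 TPM to 47.3, 47.2 and 45.8 TPM (-0.20 ± 0.07, edgeR adjusted p = 0.0151), and YARS2, the tyrosine enzyme, from 47.5, 40.1 and 45.3 TPM to 38.1, 37.6 and 39.9 TPM (-0.20 ± 0.07, edgeR adjusted p = 0.01929). IARS2 fell by 0.14 on the log2 scale (SE 0.04). CARS2 lost its call without vehicle replicate 1 or inhibitor replicate 3, and YARS2 without vehicle replicate 1 or inhibitor replicate 2. Both also lost it with DESeq2 as the test.

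TARS2, the threonine enzyme, and VARS2, the valine enzyme, went the other way. TARS2 was at 12.3, 12.8 and 15.6 TPM with vehicle and at 18.9, 17.6 and 20.9 TPM with the inhibitor, without overlap (0.46 ± 0.10, edgeR adjusted p = 0.0001986). VARS2 was at 21.1, 21.1 and 23.9 TPM and at 23.6, 24.99 and 27.6 TPM, so 1 vehicle library lay above 1 inhibitor library (0.20 ± 0.07, edgeR adjusted p = 0.02742). The VARS2 call was lost in 6 of 13 alternatives, 4 of them with 1 library left out (vehicle replicate 1 or 2, inhibitor replicate 2 or 3).

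**Figure D2:**
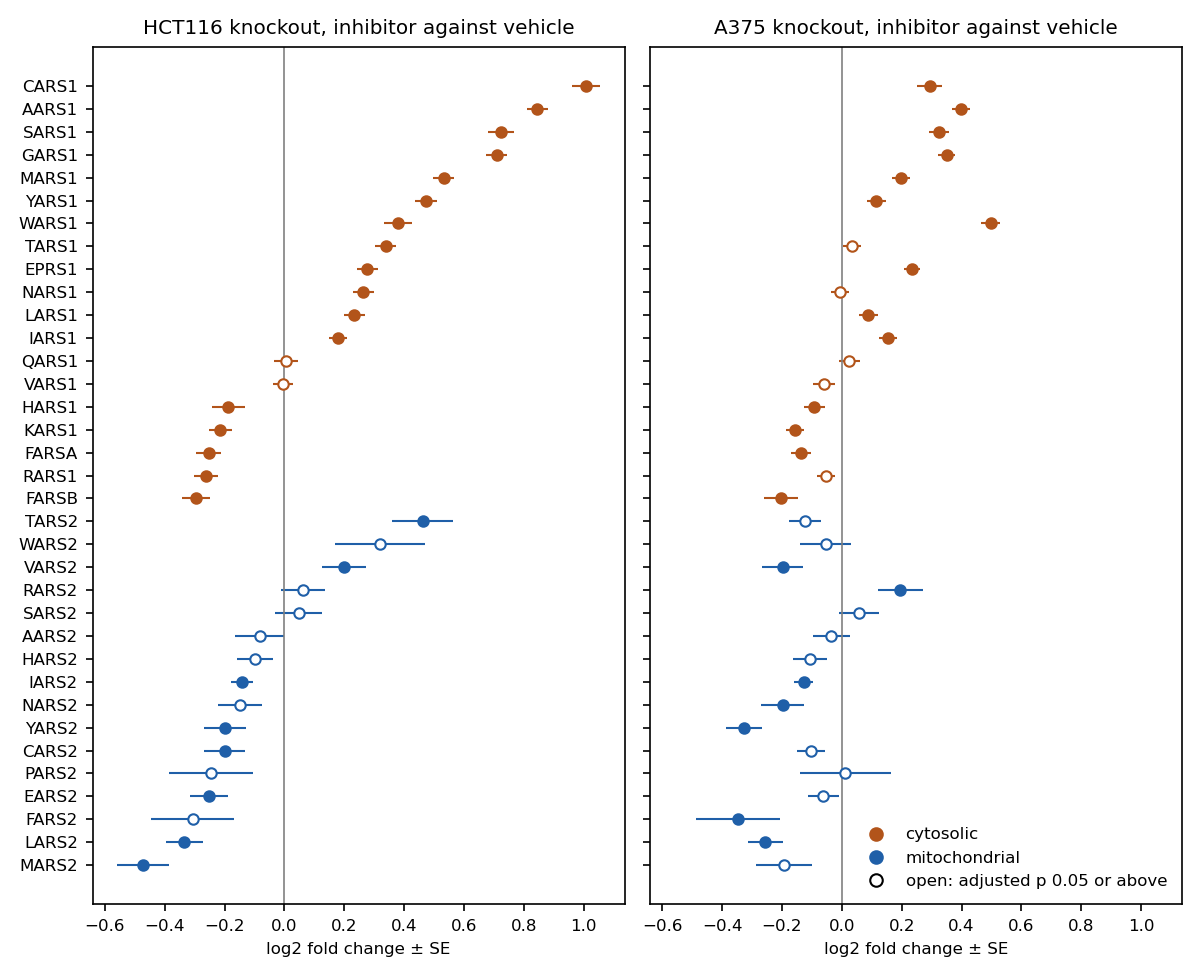
Log2 fold change with the inhibitor in the knockout of each line (points) with standard errors (lines, n = 3 per group) for the 35 genes, ordered within each compartment by the HCT116 value. Open points had an edgeR adjusted p of 0.05 or above, and CARS1 at 1.01 and MARS2 at -0.47 are the ends of the HCT116 panel.

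Setting each cytosolic gene beside the mitochondrial gene for the same amino acid gave 17 pairs. EPRS1 and FARS2 each entered more than 1 pair, so the pairs are not all separate. No share over other gene pairs was computed to set beside the counts of pairs here and below. In the HCT116 knockout the TPM ratio of cytosolic to mitochondrial gene was higher in all 3 inhibitor libraries than in any vehicle library for 10 pairs, lower for 1 and overlapping for 6. CARS1 over CARS2 went from 1.23, 1.37 and 1.27 to 2.88, 2.97 and 3.07. AARS1 over AARS2, whose mitochondrial gene did not pass the test (-0.08 ± 0.08), went from 11.0, 11.2 and 9.43 to 20.5, 19.4 and 19.96. MARS1 over MARS2, where the genes moved in opposite directions, went from 7.13, 6.76 and 7.62 to 13.2, 15.1 and 15.1. In each of these every inhibitor library lay far above every vehicle library. RARS1 over RARS2 was the pair that went down, from 4.40, 3.62 and 3.69 to 3.21, 3.09 and 2.98. The ratios of TARS1 over TARS2 (16.9, 16.5 and 13.3 with vehicle, 14.4, 14.5 and 12.6 with inhibitor) overlapped, and both genes of the pair rose.

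In the A375 knockout the inhibitor also raised most cytosolic synthetase genes and lowered part of the mitochondrial set. Of the 19 cytosolic genes 10 rose, 4 fell and 5 did not pass, and of the 16 mitochondrial genes 1 rose, 6 fell and 9 did not pass. Over all 13455 genes tested 37.5% were called, 18.7% up and 18.8% down. The median log2 fold change was 0.09 for the cytosolic set, -0.115 for the mitochondrial set and 0.006 for all genes.

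WARS1, the tryptophan enzyme, led in this line. It went from 183, 174 and 178 TPM to 261, 248 and 264 TPM, a log2 fold change of 0.50 ± 0.03 (edgeR adjusted p = 5.763e-20). AARS1 followed, from 208, 199 and 196 TPM to 268, 269 and 274 TPM (0.40 ± 0.03, edgeR adjusted p = 6.042e-17). GARS1 went from 246, 237 and 248 TPM to 316, 309 and 327 TPM (0.35 ± 0.03, edgeR adjusted p = 3.381e-15). In all 3 the groups were well apart. SARS1 went from 187, 190.4 and 182 TPM to 239, 232 and 236 TPM (0.32 ± 0.03, edgeR adjusted p = 3.233e-12), CARS1 from 99.5, 101 and 93.4 TPM to 121, 125 and 121 TPM (0.29 ± 0.04, edgeR adjusted p = 3.537e-08), and EPRS1, the joint glutamate and proline enzyme, from 211, 211 and 205 TPM to 245, 247 and 263 TPM (0.24 ± 0.03, edgeR adjusted p = 1.877e-10). None of these overlapped. The other 4 risers, MARS1, IARS1, YARS1 and LARS1, changed by 0.09 to 0.20. LARS1 lost its call without vehicle replicate 1 or 2 or inhibitor replicate 3.

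Of the 12 textbook targets 10 rose in A375. NARS1, the asparagine enzyme, at 242, 240.1 and 251 TPM with vehicle and 244, 250.4 and 251 TPM with inhibitor, and TARS1, at 297, 288 and 288 TPM and 303, 288 and 317 TPM, had overlapping groups and did not pass. Their 95% intervals were -0.07 to 0.05 and -0.03 to 0.09. Of the other 7 cytosolic genes none rose, and FARSB (-0.20 ± 0.06), KARS1 (-0.16 ± 0.03), FARSA (-0.14 ± 0.03) and HARS1 (-0.09 ± 0.04) fell. The FARSB call was lost without inhibitor replicate 2, and that of HARS1 in 6 of 13 alternatives, 4 of them with 1 library left out (vehicle replicate 1 or 3, inhibitor replicate 2 or 3). The FARSA groups overlapped. RARS1, called down in HCT116, was at -0.05 ± 0.03 and did not pass.

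Of the mitochondrial genes in A375, YARS2 went from 56.5, 55.1 and 51.3 TPM to 44.8, 44.4 and 43.4 TPM (-0.33 ± 0.06, edgeR adjusted p = 8.547e-06), and LARS2 from 27.8, 26.3 and 24.8 TPM to 23.1, 21.6 and 22.8 TPM (-0.26 ± 0.06, edgeR adjusted p = 0.000344). Both pairs of groups were apart, and these genes fell in both lines. FARS2, the mitochondrial phenylalanine enzyme, went from 9.10, 10.8 and 11.5 TPM to 7.54, 8.11 and 9.40 TPM, with overlap (-0.35 ± 0.14, edgeR adjusted p = 0.04557), and its call was lost in 7 of 13 alternatives. NARS2, the asparagine enzyme, went from 28.3, 27.5 and 29.2 TPM to 26.5, 25.2 and 24.6 TPM (-0.20 ± 0.07, edgeR adjusted p = 0.0253). IARS2 fell by 0.13 on the log2 scale (SE 0.03), as in HCT116. The riser was RARS2, the arginine enzyme, from 31.1, 36.6 and 36.1 TPM to 40.2, 40.0 and 40.8 TPM (0.20 ± 0.07, edgeR adjusted p = 0.03331). The RARS2 and NARS2 groups did not overlap, but their calls were lost in 5 and 6 of 13 alternatives, 4 of them in each case with 1 library left out (vehicle replicate 1, inhibitor replicates 2 and 3, and inhibitor replicate 1 for RARS2 or vehicle replicate 3 for NARS2).

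By amino acid, the TPM ratio of cytosolic to mitochondrial gene in A375 was above vehicle in every inhibitor library for 12 of the 17 pairs, below for 1, again RARS1 over RARS2 (8.78, 7.76 and 7.67 with vehicle, 6.75, 6.81 and 6.75 with inhibitor), and overlapping for 4. Those above include the pairs of NARS1, TARS1 and VARS1, cytosolic genes that were not called in this line. WARS1 over WARS2 went from 11.7, 11.3 and 10.8 to 16.2, 16.3 and 17.0, and IARS1 over IARS2 from 1.07, 1.03 and 1.09 to 1.30, 1.31 and 1.28.

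Summed over members the shift had the same direction in both lines. Counts scaled by TMM factors and library size (CPM) and added over the 19 cytosolic genes rose from 4171, 4337 and 4190 to 5098, 5128 and 4986 in the HCT116 knockout, while the 16 mitochondrial genes together went from 780.3, 788.8 and 789.8 to 720.2, 728.7 and 700.7. The ratio of the sums was 5.38 ± 0.102 (SD, n = 3) with vehicle and 7.08 ± 0.039 with inhibitor. In the A375 knockout it was 5.885 ± 0.089 and 6.98 ± 0.061. The parents stayed close to their vehicle values, at 5.24 ± 0.118 and 5.31 ± 0.111 in HCT116 and at 6.01 ± 0.059 and 6.17 ± 0.107 in A375, with overlapping libraries in HCT116 and non-overlapping ones in A375 (5.97 to 6.08 with vehicle, 6.09 to 6.29 with inhibitor). No test was run on these sums, since the members were chosen with results known. EPRS1 made up 9.1% of the cytosolic sum and IARS2 30.1% of the mitochondrial one, so IARS2 weighs heavily there.

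**Figure D3:**
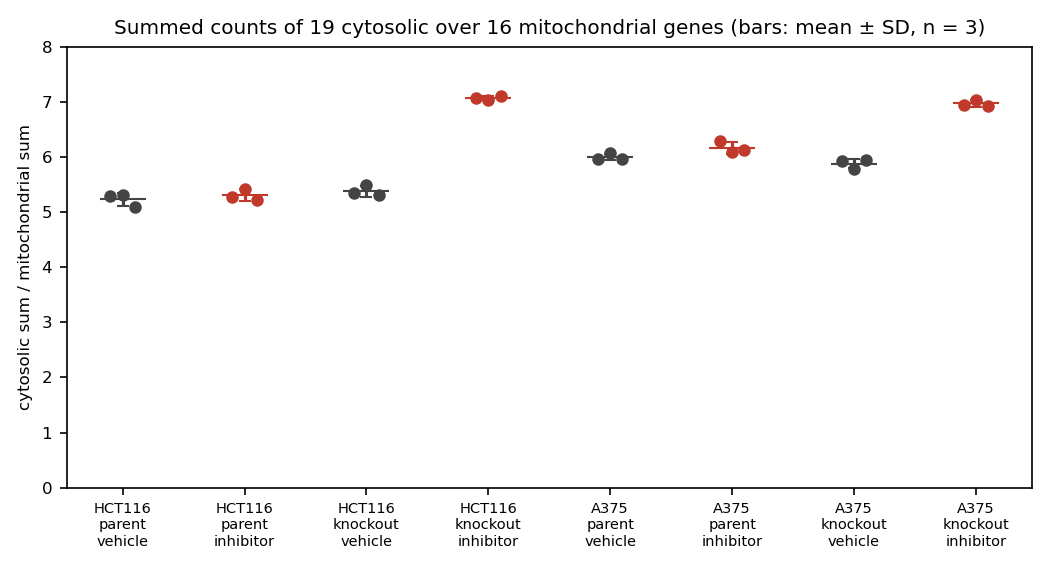
Ratio of summed CPM of the 19 cytosolic over the 16 mitochondrial synthetase genes in each of the 24 libraries (points), with mean ± SD per group (n = 3), grey for vehicle and red for inhibitor. The knockout libraries with inhibitor sit at 7.04 to 7.12 in HCT116 and 6.93 to 7.04 in A375, above all other libraries of their line.

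In the parent lines the inhibitor gave no call among the 35 members. Over all genes 0% were called in the HCT116 parent and 0.104% in the A375 parent (0.0372% up, 0.0669% down). With edgeR 3 of the 35 members in HCT116 (FARSB, YARS1 and WARS2) and 7 in A375 (EPRS1, IARS1, NARS1, SARS1, TARS1, YARS1 and FARS2) had an unadjusted p under 0.05. So did 530 of all 13164 genes tested in HCT116 and 884 of 13455 in A375. DESeq2 and limma-voom also called 0 members in both. CARS1, for example, was at 68.1, 62.2 and 64.6 TPM with vehicle and 59.8, 63.3 and 66.2 TPM with inhibitor in the HCT116 parent, with a 95% interval for the log2 change of -0.13 to 0.07. SARS1 in the A375 parent came nearest to a call in that line, at 177, 178 and 168 TPM and 191, 188 and 185 TPM (0.13 ± 0.04, edgeR adjusted p = 0.2897), with no overlap. Median log2 changes of all members were 0.02 in HCT116 and 0.04 in A375, against 0 and 0.004 for all genes. In the A375 parent the values of the 19 cytosolic genes were all positive, from 0.0023 to 0.1261.

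The difference between knockout and parent in their response was tested directly as an interaction. In HCT116 the 12 textbook targets were higher in this contrast (median 0.36), and of the other cytosolic genes FARSB (-0.39 ± 0.06), FARSA (-0.28 ± 0.06), RARS1 (-0.27 ± 0.06) and KARS1 (-0.25 ± 0.05) were lower. Of the mitochondrial genes TARS2 was higher, and MARS2, LARS2, EARS2, CARS2 and IARS2 were lower. Over all genes 24.9% were called, 11.1% up and 13.8% down. The largest value was that of CARS1, 1.04 ± 0.07 (edgeR adjusted p = 3.189e-20). The mitochondrial calls other than LARS2 held less well: TARS2 lost its call in 9 and CARS2 in 8 of 19 alternatives, 8 and 7 of them with 1 library left out. Without HCT116 knockout inhibitor replicate 3 only 1 of the 6 mitochondrial calls was left, that of LARS2.

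In A375, 7 cytosolic genes were higher in the interaction (WARS1, AARS1, GARS1, CARS1, SARS1, EPRS1 and MARS1) and 3 were lower (FARSB, KARS1 and FARSA), with 27.3% of all genes called, 13.3% up and 14% down. WARS1 had the largest value, 0.46 ± 0.05 (edgeR adjusted p = 5.691e-12). No mitochondrial gene was higher, and FARS2 (-0.66 ± 0.21), YARS2 (-0.38 ± 0.09), LARS2 (-0.27 ± 0.08) and IARS2 (-0.15 ± 0.05) were lower. The FARS2 value also holds a rise in the parent that was not called. Its means with vehicle and with inhibitor were 8.0 and 9.76 TPM in the parent and 10.5 and 8.35 TPM in the knockout. FARSB lost its call in 5 of 19 alternatives, 4 of them with 1 library left out (parent vehicle replicate 1 or 3, parent inhibitor replicate 2, knockout inhibitor replicate 2). FARSA lost its call without knockout inhibitor replicate 3, MARS1 without knockout vehicle replicate 3, LARS2 without knockout vehicle replicate 1 and with DESeq2, and FARS2 with DESeq2.

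The responses of the 2 knockouts differed for 12 members, by a test of the A375 effect minus the HCT116 effect over all 24 libraries (19.7% of 14637 genes were called, 10.9% up and 8.75% down). Of the 12 textbook targets 9 had a lower value in A375. Among these targets the largest differences were those of CARS1 (-0.71 ± 0.06, edgeR adjusted p = 9.321e-17), AARS1 (-0.44 ± 0.05, edgeR adjusted p = 3.828e-13) and SARS1 (-0.40 ± 0.05, edgeR adjusted p = 6.06e-09). WARS1, IARS1 and EPRS1 were the targets with no call for a difference. WARS1 was at 0.12 ± 0.06 in this contrast. RARS1 was the member with a higher value in A375 (0.21 ± 0.05, edgeR adjusted p = 0.00083).

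TARS2 and VARS2 were the mitochondrial members whose responses differed. VARS2, called up in the HCT116 knockout, was called down in the A375 knockout, from 25.2, 24.6 and 21.4 TPM to 21.3, 19.6 and 22.4 TPM with overlap (-0.20 ± 0.07, edgeR adjusted p = 0.01785), and the difference between the lines was -0.39 ± 0.10 (edgeR adjusted p = 0.001993). Each of the VARS2 calls was weak: that in A375 was lost in 4 of 13 alternatives, 3 with 1 library left out (vehicle replicate 1 or 2, or inhibitor replicate 2), whereas the call for the difference held in all 19. TARS2 was at 50.9, 49.5 and 49.0 TPM with vehicle and 46.1, 45.4 and 49.4 TPM with inhibitor in A375, overlapping and not called (-0.12 ± 0.05), and its difference between the lines was -0.58 ± 0.11 (edgeR adjusted p = 2.398e-05). VARS1 and VARS2 encode related proteins, and no check was made of reads shared between them.

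**Figure D4:**
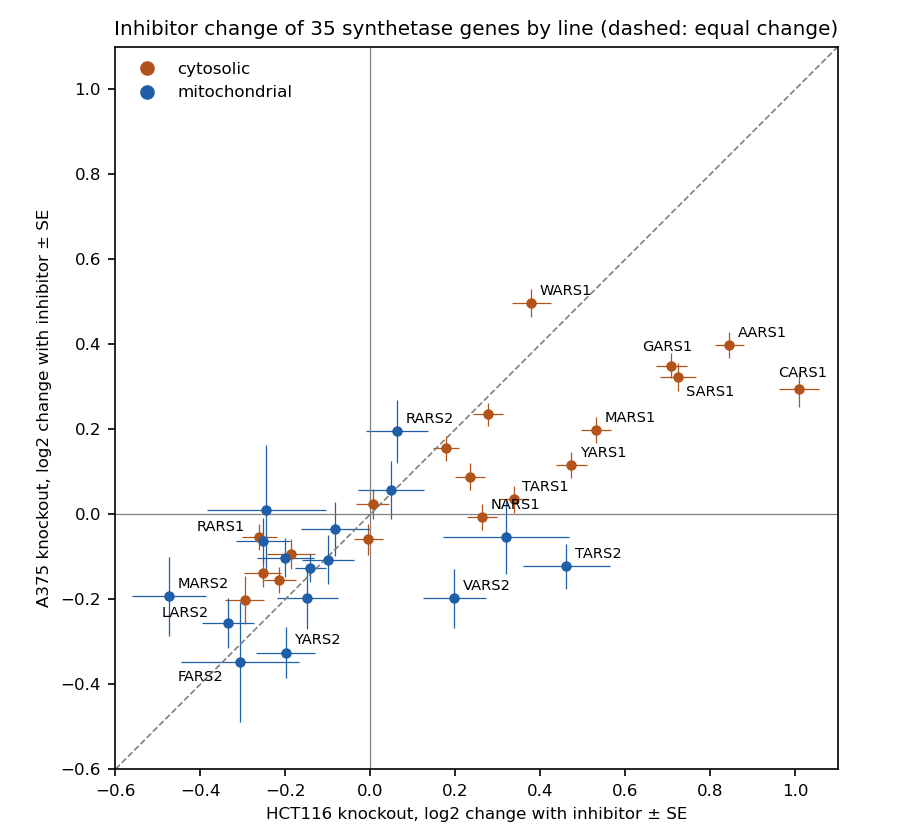
Log2 change with the inhibitor in the HCT116 knockout (x axis) and the A375 knockout (y axis) for each of the 35 genes, with standard errors (n = 3 per group) and a dashed line of equal change. CARS1, AARS1, SARS1 and GARS1 lie below the dashed line, while TARS2 (0.46 and -0.12) and VARS2 (0.20 and -0.20) lie in the lower right quadrant.

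Without the inhibitor the clones differed from their parents in fewer members. In HCT116, 6 cytosolic genes were higher in the knockout (AARS1, LARS1, NARS1, QARS1, TARS1 and EPRS1, by 0.10 to 0.21 on the log2 scale), 2 were lower (HARS1 and WARS1), and 2 mitochondrial genes were lower (MARS2 and YARS2), with 21.3% of all genes called, 10.5% up and 10.8% down. In A375 FARSB, SARS1, FARS2 and YARS2 were higher and MARS1 was lower, with 16.3% of genes called, 9.54% up and 6.78% down. None of the 5 calls in A375 held in all 13 alternatives, and of the 10 in HCT116 4 did (HARS1, WARS1, AARS1 and LARS1).

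HARS1 had by far the largest difference of any member between clone and parent. It was at 127, 125 and 130.4 TPM in the HCT116 parent with vehicle and at 58.9, 61.7 and 60.5 TPM in the knockout with vehicle, a log2 difference of -1.06 ± 0.05 and a fold of 0.480 (edgeR adjusted p = 1.929e-29). The inhibitor groups repeated the gap, at 121, 122 and 119 TPM in the parent and 52.6, 53.2 and 53.0 TPM in the knockout. No library of the knockout came near the parent range. In A375 the HARS1 levels of parent (182, 186 and 177 TPM) and knockout (175, 169.5 and 176 TPM) differed by -0.03 ± 0.04 on the log2 scale and were not called, although every knockout library was below the parent libraries. HARS2, which lies next to HARS1 in the opposite orientation and is similar enough to it in sequence for reads to be shared out between them, was at 50.4, 49.6 and 45.5 TPM in the HCT116 parent and 54.3, 47.5 and 51.9 TPM in the knockout (0.10 ± 0.06, not called). The ratio of HARS1 to HARS2 went from 2.53, 2.52 and 2.86 to 1.08, 1.30 and 1.17 in the clone.

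The neighbours of HARS1, looked at after its value was seen, were mixed. On its other side DND1 (-0.40 ± 0.13, edgeR adjusted p = 0.0259) and WDR55 (-0.62 ± 0.07, edgeR adjusted p = 9.322e-11) were also lower in the HCT116 knockout, while IK, NDUFA2 and TMCO6 beyond them and ZMAT2 beyond HARS2 were not called. There was 1 clone, so loss of PTDSS2 and other differences of that clone cannot be told apart.

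WARS1 was lower in the HCT116 knockout with vehicle too, at 84.5, 86.8 and 82.6 TPM against 109, 102 and 101 TPM in the parent (-0.26 ± 0.04, edgeR adjusted p = 4.042e-06). With the inhibitor the knockout reached 105, 114 and 113 TPM, which overlaps the parent range. AARS1 was higher in the knockout with vehicle (149, 151 and 149 TPM against 135, 129 and 129 TPM, 0.21 ± 0.04, edgeR adjusted p = 3.248e-06), without overlap.

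**Figure D5:**
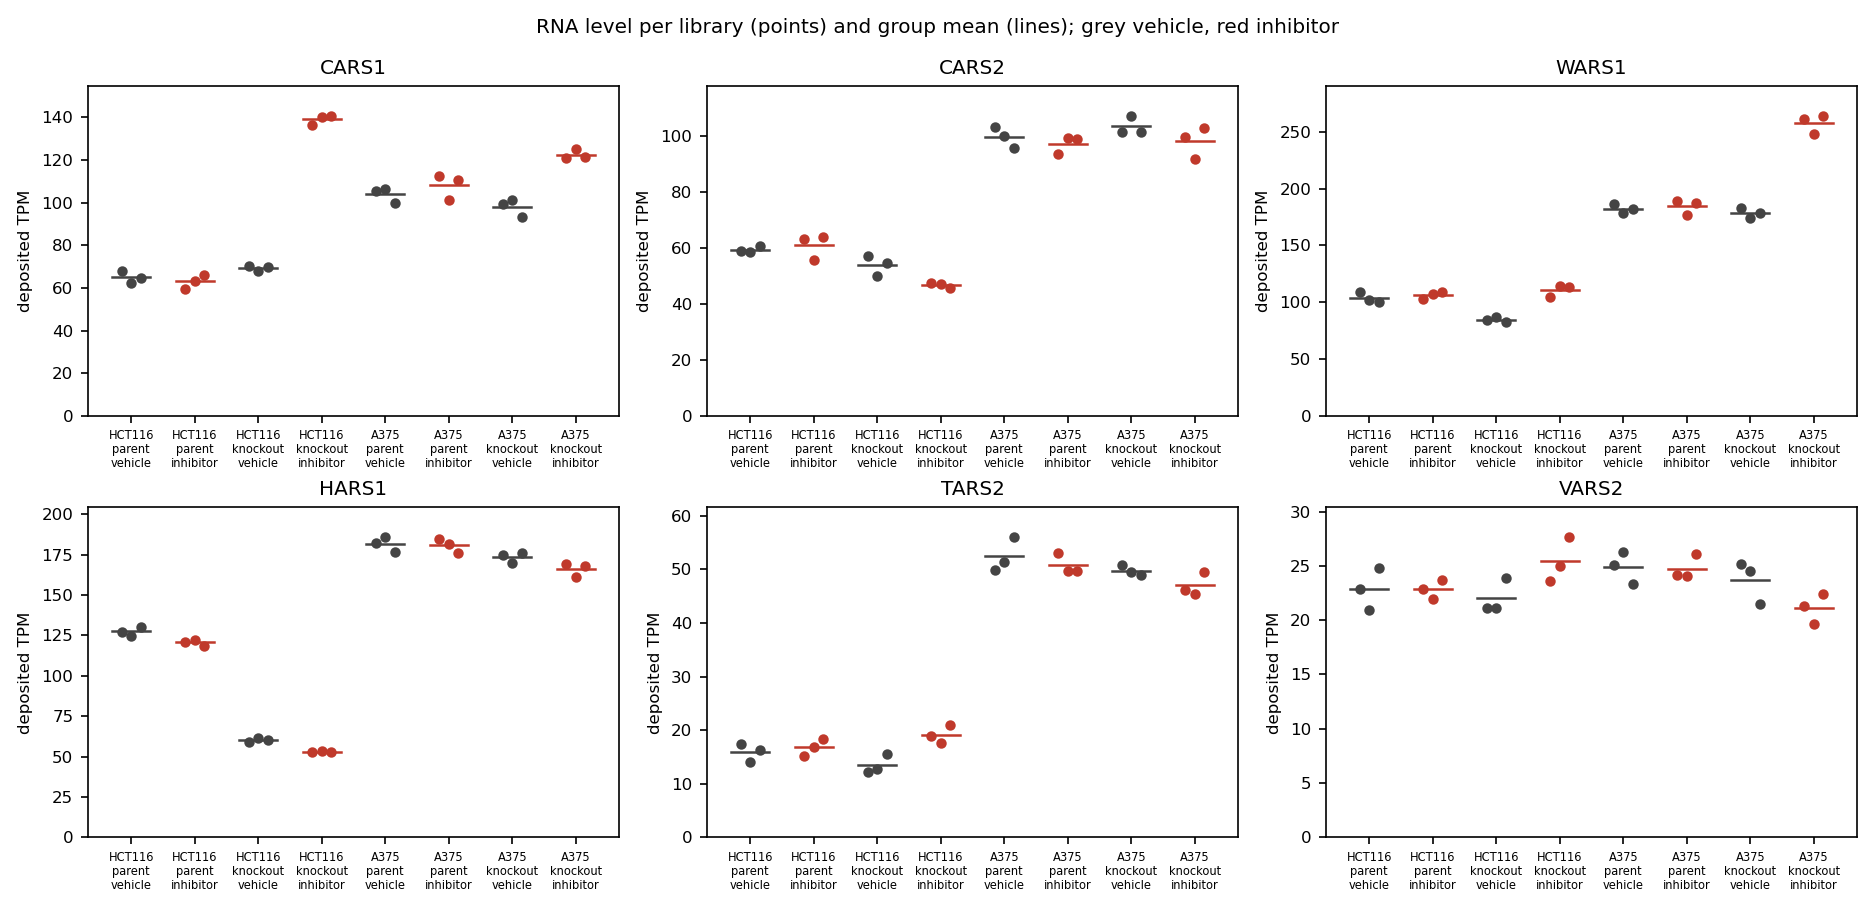
Deposited TPM of 6 members in each library (points) and the group means (lines) for the 8 groups, grey for vehicle and red for inhibitor, with each axis starting at 0. CARS1 stands out in the knockouts with inhibitor, WARS1 in the A375 knockout with inhibitor, and HARS1 is low in all 6 HCT116 knockout libraries.

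The lines themselves differed in most members before any treatment, as they did in most of all genes. Comparing the parents with vehicle, 16 cytosolic genes were higher and 3 lower in A375 than in HCT116, and 7 mitochondrial genes were higher and 6 lower, against 81.8% of all genes called, 42.2% up and 39.6% down. Counted in either direction, the mitochondrial calls were near the share over all genes. Among the cytosolic genes the share that was higher exceeded the 42.2% of all genes. The median log2 difference was 0.60 for the cytosolic set, 0.11 for the mitochondrial set and 0.03 for all genes. The subunits of the cytosolic phenylalanine enzyme went opposite ways. FARSA was at 447, 459.6 and 472 TPM in A375 and 198, 197 and 201 TPM in HCT116 (1.27 ± 0.04, edgeR adjusted p = 1.513e-53), while FARSB was at 62.3, 69.8 and 59.4 TPM in A375 and 140.2, 134 and 123 TPM in HCT116 (-1.01 ± 0.05, edgeR adjusted p = 1.315e-27). VARS1 (-0.47 ± 0.04) and IARS1 (-0.28 ± 0.03) were the other cytosolic genes that were lower in A375. Among the mitochondrial genes TARS2 (49.9, 51.4 and 55.9 TPM against 17.5, 14.1 and 16.2 TPM, 1.77 ± 0.07, edgeR adjusted p = 2.187e-41) and WARS2 (16.6, 15.98 and 14.0 TPM against 6.52, 5.20 and 4.48 TPM, 1.57 ± 0.12, edgeR adjusted p = 1.37e-22) had the largest differences.

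Genes that work beside the synthetases were counted from fixed lists in the same fits, the knockouts with inhibitor against vehicle, in which 37.1% of all genes were called in HCT116 and 37.5% in A375. The counts for the accessory genes and, in HCT116, the mitochondrial translation factors given below are near or under those shares. Of 14 regulators and reporters of the stress response 11 rose and 2 fell in HCT116 and 11 rose and 1 fell in A375. With the inhibitor in the parents, 1 of the 14 rose in A375, where 0.0372% of all genes rose, and 0 were called in HCT116. In the knockouts ATF4 rose by 0.72 ± 0.03 in HCT116 and by 0.45 ± 0.03 in A375 on the log2 scale. TRIB3, a pseudokinase induced in this response, rose by 1.54 ± 0.06 and 0.66 ± 0.04. EIF2AK4, the kinase that senses uncharged tRNA, was named after its values were seen and fell in both lines (-0.32 ± 0.05 and -0.17 ± 0.04). Of 16 genes of tRNA maturation and export 9 fell and 1 rose in HCT116, and 10 fell and 1 rose in A375. The riser was in both lines XPOT, the exporter of tRNA from the nucleus, which went from 89.8, 88.0 and 91.3 TPM to 112, 123 and 111 TPM in HCT116 (0.37 ± 0.04, edgeR adjusted p = 7.327e-12) and from 222, 218 and 217 TPM to 270, 259.7 and 266 TPM in A375 (0.25 ± 0.03, edgeR adjusted p = 4.12e-11). In HCT116 the XPOT vehicle libraries of the knockout were below those of the parent (105 to 110.0 TPM). POP1, a protein of the RNase that trims the leading end of tRNA, fell by 0.58 (SE 0.05) and 0.32 (SE 0.05). Of 9 mitochondrial translation factors 2 fell and none rose in HCT116, and 4 fell and 1 rose in A375. Of 11 accessory genes of tRNA charging 1 rose and 3 fell in HCT116 and 1 rose and 2 fell in A375. QRSL1, a subunit of the mitochondrial amidotransferase that makes glutaminyl-tRNA in the absence of a mitochondrial glutamine enzyme, fell in HCT116 (-0.51 ± 0.07, edgeR adjusted p = 5.508e-08) and was at -0.17 ± 0.09 in A375, not called. Of 7 genes listed for cytosolic elongation 4 rose and 2 fell in HCT116 and 2 rose and 2 fell in A375. The list includes EEF1E1, already counted above as a scaffold gene and 1 of the 2 that fell in HCT116. EEF1A1, which carries charged tRNA to the ribosome, was up by 0.25 ± 0.03 and 0.12 ± 0.02.

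WARS1 is also a textbook interferon-inducible gene, so interferon-inducible genes were listed beside it. Of 10 tested in A375 4 rose with the inhibitor in the knockout (IRF1, GBP2, TAP1 and IFIT3) and none fell, and of 8 tested in HCT116 1 rose (IRF1) and 2 fell. Counted in either direction, these shares are close to the 37.5% and 37.1% of all genes called. By direction, 18.7% of all genes rose and 18.8% fell in A375, and 17.1% rose and 20.1% fell in HCT116. The share that rose in A375 was thus above that of all genes, but rests on 10 genes. With vehicle, 2 of these 10 were lower in the A375 knockout than in its parent and 0 were higher. Of all genes 6.78% were lower and 9.54% higher in that comparison. IRF1 went from 7.16, 7.55 and 6.66 TPM to 12.1, 11.2 and 12.8 TPM in A375 (0.73 ± 0.10, edgeR adjusted p = 1.104e-08). The WARS1 promoter held no TGATGNAA but 1 match to TTCNNNGAA, the letters of an interferon-activated site, which lay in 5 of the 30 members (CARS1, PARS2, TARS1, WARS1 and WARS2) and in 9.38% of all genes. The stretch around it is shown because WARS1 led in A375.
WARS1 (chr14:100375436-100375534, minus strand): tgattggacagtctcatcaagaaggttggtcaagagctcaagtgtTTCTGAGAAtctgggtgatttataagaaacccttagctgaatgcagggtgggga

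The part of these genes in the WARS1 values was not tested.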

How the data were processed

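Poly(A) RNA libraries were made with an NEBNext Ultra RNA kit, per the labels' protocols. The submitters' processing notes name STAR 2.4.2a, RSEM 1.2.23 and the build hg19. The gene annotation and the strand setting are not stated in the sources used here. Per the file headers, the deposited expected counts come from RSEM for each gene. They can be fractional, since a read matching more than 1 gene is divided. The deposited TPM, also named in the headers, adjusts for transcript length and library size and served for levels and per-library values. The deposited FPKM values were not used. Symbols came from a RefSeq gene table of GRCh38.p14, which matched 25220 of 25343 identifiers.

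Expected counts were rounded, scaled with TMM factors and filtered with edgeR's default rule (10 counts per library, 15 in total). The 12 libraries of a line shared a fit, and contrasts between lines used all 24, with edgeR 4.0.16 (R 4.3.3; robust quasi-likelihood F test, two-sided, Benjamini-Hochberg over all genes tested, threshold 0.05). Standard errors are the log2 fold change divided by the square root of F, and 95% intervals use 1.96 SE. The scripts were tested on simulated data. The alternatives tried were no filter or one at 5 CPM on average, size factors from DESeq2, limma-voom (limma 3.58.1) or DESeq2 1.42.0 as the test, fits with more or fewer libraries, a block for the replicate number, and dropping single libraries.

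The members and lists were chosen with earlier results of these data known. Values per library are given for up to 6 called members per compartment with the largest change in each knockout, for their partners, and for a member called in opposite directions. Up to 4 genes per list are named. The neighbours of HARS1 were added after its value was seen. Values of some listed marker genes are not reported here.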

Additional observations from a re-analysis of the deposited data

Results flagged for a closer look

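For 12 members the log2 effect of the inhibitor differed between the knockouts of the lines (A375 minus HCT116, edgeR adjusted p under 0.05, n = 3 per group). The differences were -0.71 for CARS1, -0.58 for TARS2, -0.44 for AARS1, -0.40 for SARS1, -0.39 for VARS2, -0.35 for GARS1, -0.35 for YARS1, -0.33 for MARS1, -0.30 for TARS1, -0.26 for NARS1, -0.14 for LARS1 and 0.21 for RARS1. For the cytosolic genes but RARS1 this was a smaller rise, or no called change, in A375. TARS2 and VARS2 rose in HCT116 and had negative values in A375, of which that of VARS2 was called. LARS1 lost its call in 7 of 19 alternatives, and the other 11 held in all 19. Groups of 3 libraries are too small for a test of single outlying libraries.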

How the results depend on the processing

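No called member changed direction under any alternative that was run, while members that were not called and lay near 0, such as QARS1 and VARS1 in the HCT116 knockout, changed sign in some. Of the member calls, 22 of 25 in the HCT116 knockout with inhibitor and 14 of 21 in the A375 knockout held in all 13 alternatives. Each count of called members or genes below moved by over 1.5 times in at least 1 alternative, and the cause was not tested. Ranges with a library left out are given also where they stayed within 1.5 times. With DESeq2 the mitochondrial calls were 5 in place of 8 (HCT116 knockout), 3 in place of 7 (A375 knockout), 1 in place of 6 (HCT116 interaction) and 2 in place of 4 (A375 interaction). With each library left out in turn they ranged from 5 to 9, 3 to 8, 1 to 6 and 3 to 5. For the HCT116 clone against its parent DESeq2 called 5 cytosolic (8 with edgeR), 0 mitochondrial (2) and 1798 of all genes (2804), and leaving out libraries gave 5 to 8, 1 to 2 and 2231 to 2464. For the A375 clone DESeq2 called 1 cytosolic (3), 0 mitochondrial (2) and 1371 of all genes (2196), and leaving out libraries gave 0 to 4, 0 to 1 and 1673 to 1847. Its mitochondrial calls were 1 with DESeq2 size factors, 0 without the filter, 1 with the 5 CPM filter, 1 with limma-voom and 0 with only the libraries compared. In the HCT116 parent, where no gene was called, 4 were without the filter, 1 with DESeq2, 4 with only the libraries compared and 0 to 2 with a library left out. In the A375 parent 14 genes became 9 to 15. The log2 change of the summed ratio was 0.36 from the deposited TPM against 0.395 in HCT116, and 0.215 against 0.245 in A375 (0.385 to 0.41 and 0.23 to 0.252 with a library left out). With the bases before the start alone 4 members held TGATGNAA and 0 held TGATGCAAT.

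Replicates share numbers across groups, but same-numbered libraries did not deviate together (correlations -0.088 to 0.112), so the numbers were not taken as pairs. With the replicate block 1 gene was called in the HCT116 parent, 17 cytosolic and 8 mitochondrial members in the HCT116 knockout, and 14 and 7 in the A375 knockout, the last 4 counts being those without it. Members with few counts, such as FARS2, PARS2 and WARS2, had the widest errors.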
